A study of Mus musculus with 8 samples.

Results

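The 5811 B2 windows described here are the most abundant of their repeat class in RNA from mouse dorsal root ganglia. They were taken from a table that counts reads in 243007 rows of genomic windows. A row was kept if its repeat class was B2 alone, if its position was listed in 1 row only, and if its counts over the 8 libraries summed to 1000 or more. These windows are 7.54% of the 77079 B2 windows listed once and hold 90.9% of their counts, while 42375 of the 77079 had no count in any library. Each window is 25 bases wide. Overlapping windows on 1 strand, which share reads, were merged into 2979 loci on 21 chromosomes, and each locus is described by the member window that held most counts. The members were thus selected on the counts that are reported below. Of these loci 1998 consisted of 1 window, and the largest held 15.

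Mice had 1 sciatic nerve crushed, and ganglia of the levels L4 to L6 were taken 3 days later and dissociated. The injury libraries (n = 4) came from ganglia of the crushed nerve. The naive libraries (n = 4) came from ganglia of the same 4 mice, so they too are from animals with a crushed nerve. The labels give no strain, sex or age. RNA was read from its poly(A) tail (QuantSeq 3′ mRNA-seq REV, which primes on A-rich RNA and keeps the strand).

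B2 elements are short interspersed repeats of rodent genomes that derive from a tRNA gene. They carry an internal promoter for RNA polymerase III, made of an A box and a B box, and end in an A-rich tail that can hold AATAAA polyadenylation signals and a short terminator with a run of T. B2 sequence is transcribed from this promoter and also as part of longer RNA polymerase II transcripts. B2 RNA made by polymerase III is known to accumulate in cells under stress such as heat shock. Counts at poly(A) ends cannot tell apart an RNA that began at the element from one that began at a gene.

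The sequences below show where in the element the reads were counted. No genome sequence was used here, so only windows inside an annotated exon on either strand could be read, and 119 of the 2979 loci had one. The first is an element with all 3 motifs, at chr17:31307471-31307695, minus strand, opposite an exon of a transcript of Slc37a1 with a retained intron. It has the most counts (276478 over the 8 libraries) of the 47 loci outside annotated untranslated regions with enough sequence to print. All runs are GENCODE transcript sequence on the strand of the window, which is the reverse complement of a transcript on the other strand. The window is the stretch of 25 bases that is followed by the last 35 bases of the run. Capitals mark GTTCAA, the core of the B box, then AATAAA and TCTTT, the letters of the B2 terminator.
Slc37a1 element: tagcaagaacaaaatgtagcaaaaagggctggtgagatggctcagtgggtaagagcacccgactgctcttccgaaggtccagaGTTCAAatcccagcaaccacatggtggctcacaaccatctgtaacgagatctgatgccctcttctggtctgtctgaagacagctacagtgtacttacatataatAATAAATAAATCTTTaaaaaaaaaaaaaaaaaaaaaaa

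The same end of 8 further elements is shown because their windows span the range from no rise to the largest rises among the loci that could be printed. Each run is the 25-base window and the 35 bases after it, with AATAAA and TCTTT in capitals. Of the same 47 loci, they are the 5 with the most counts, the 3 with the largest and the 3 with the smallest log2 fold change, with the element above and 1 other locus in both sets. The positions on GRCm38 are chr6:120348107-120348166 (plus strand, opposite Ccdc77), chr4:136641407-136641466 (minus, opposite Gm37583), chr9:101117500-101117559 (minus, opposite Gm37621), chr1:171502087-171502146 (minus, in B930036N10Rik), chr3:131247333-131247392 (plus, opposite Hadh), chr16:17524836-17524895 (minus, opposite Lztr1), chr5:129791002-129791061 (plus, in Cct6a) and chr17:94760230-94760289 (minus, in Gm1976).
Ccdc77: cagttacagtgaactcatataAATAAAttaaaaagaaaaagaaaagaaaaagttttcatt
Gm37583: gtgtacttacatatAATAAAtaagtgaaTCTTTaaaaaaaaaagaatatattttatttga
Gm37621: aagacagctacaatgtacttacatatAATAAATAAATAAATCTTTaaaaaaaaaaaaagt
B930036N10Rik: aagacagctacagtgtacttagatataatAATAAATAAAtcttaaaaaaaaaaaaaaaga
Hadh: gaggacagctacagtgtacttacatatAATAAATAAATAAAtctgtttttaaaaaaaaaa
Lztr1: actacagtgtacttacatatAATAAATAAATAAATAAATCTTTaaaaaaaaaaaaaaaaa
Cct6a: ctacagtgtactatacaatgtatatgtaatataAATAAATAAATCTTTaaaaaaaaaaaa
Gm1976: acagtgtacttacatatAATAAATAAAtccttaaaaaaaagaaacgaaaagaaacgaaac

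From Ccdc77 to Gm1976 these loci are in the order of their log2 fold changes, injury over naive, which were 4.93, 3.12, 2.62, 2.50, 1.20, 0.44, -0.21 and -0.38, and it was -0.15 at Slc37a1. The loci opposite Slc37a1 and Lztr1 are in groups of 5 and 3 loci with nearly equal counts, described below. There the position does not name the source of the reads. At all of them the counted window is the end of the element just before its A-rich tail. The signal AATAAA stands in every run, with any fold change. TCTTT is in the runs with -0.15 and -0.21 as well as in those with 2.62 and 3.12.

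At the locus opposite Ccdc77 the level was 10.3, 16.4, 8.74 and 9.61 CPM in the injury libraries 1 to 4, against 0.434, 0.0966, 0.229 and 0.679 CPM in the naive libraries 1 to 4. CPM here is counts per 1000000 counts of the gene table, which had 16539644 to 28950551 counts per library. At the locus opposite Gm37621 it was 38.6, 34.5, 37.1 and 36.6 CPM in injury libraries, against 4.39, 7.05, 5.56 and 6.88 CPM in naive ones. Neither locus had groups that overlapped. Both were picked for a large rise, so this is a description with no test. Over all windows tested, all injury libraries lay above all naive libraries at 37.2%. The locus in Cct6a had 107, 48.5, 62.9 and 85.1 CPM in injury libraries and 84.6, 77.6, 93.5 and 95.6 CPM in naive libraries, and there the groups overlapped, with injury 2 and injury 3 lowest (adjusted p = 0.471).

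The motifs match the label B2. GTTCAA stood in the 150 bases before the window at 98 of 114 member loci with that sequence (86.0%), against 67.9% of B2 loci under 1000 counts, 10.96% of Alu loci with 1000 counts or more and 9.71% of the other windows listed once. These last were not merged into loci and had no minimum of counts. AATAAA lay in the window or the 60 bases after it at 75 of 77 (97.4%), against 83.6%, 26.9% and 32.3% in those 3 sets. TCTTT lay in the window or the 60 bases after it at 48 of 77 (62.3%), against 41.3%, 8.96% and 10.1%. Over the 70 loci where it was found, with any length of sequence after the window, it began a median of 10 bases past the window's end. A run of 10 or more A was found in the 60 bases after the window at 57.1%. The windows were poor in G and C, with a median of 24%, against 32% in B2 loci under 1000 counts and 44% in Alu loci. Of the member loci in exons 37 lay opposite to the transcript that gave their sequence. By the strand the table gives, GTTCAA was found at 34 of 38 loci on the plus strand and 64 of 76 on the minus strand. Motifs were searched as these letters on the strand of the window, and a match is a description of sequence only.

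The summed counts of these windows were higher in every injury library than in any naive one. They came to 383642, 314890, 334293 and 384668 per 1000000 gene counts in the injury libraries 1 to 4, against 172866, 202227, 192627 and 177407 in the naive libraries 1 to 4. A read can enter this sum at several overlapping windows, so it is no share of a library. With 1 window per locus the sum was 160312 ± 15350 in injury and 79883 ± 5706 in naive libraries (SD, n = 4 each). Loci with shared counts, described below, may still enter the same reads more than once. With each group of such loci taken once the sum was 122568 ± 11432 in injury and 57021 ± 3878 in naive libraries. The median locus had 22.8, 18.7, 19.1 and 23.9 CPM in injury libraries and 7.81, 9.27, 9.39 and 8.78 CPM in naive ones. In the injury group libraries 2 and 3 were the lower ones by each of these measures. The rule sums injury and naive counts, so it favours windows that are high in the group with more counts, and these sums are given with no test.

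Of the 5811 windows, which all passed the filter on low counts, 4584 were called higher in injury libraries and 27 lower (edgeR quasi-likelihood test, Benjamini-Hochberg adjusted p under 0.05). Over all 33851 windows tested, members included, 36.4% were called higher and 2.7% lower. Among members these shares were 78.9% and 0.46%. All members have 1000 counts or more, while the background also holds windows with fewer counts. Of the tested B2 windows under 1000 counts, with a median log2 fold change of 1.24, 48.7% were called higher. The shares are therefore not compared at equal depth. The median log2 fold change of the members was 1.23, with 0.78 and 1.79 as the 25th and 75th percentiles. It was 0.72 over all windows tested and 0.53 over the 28040 that are not members. All injury libraries lay above all naive libraries at 4363 members, and at 37.2% of all windows tested. By locus 2376 were higher, 5 lower and 598 not called, with a median of 1.23. The log2 fold change was above 1 at 1936 loci, above 2 at 521 and above 3 at 173, and below 0 at 122. These are changes against the total of gene counts. With TMM scaling over the windows themselves, the median of all windows moved from 0.72 to 0.15, that of the members was 0.67, and 3313 members were called higher and 285 lower, beside 7005 and 5071 of all windows. The number of members called lower depended on single libraries: it was 46 without injury 1, 12 without injury 2, 14 without injury 3, 15 without naive 2, 12 without naive 3 and 12 without naive 4.

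**Figure D1:**
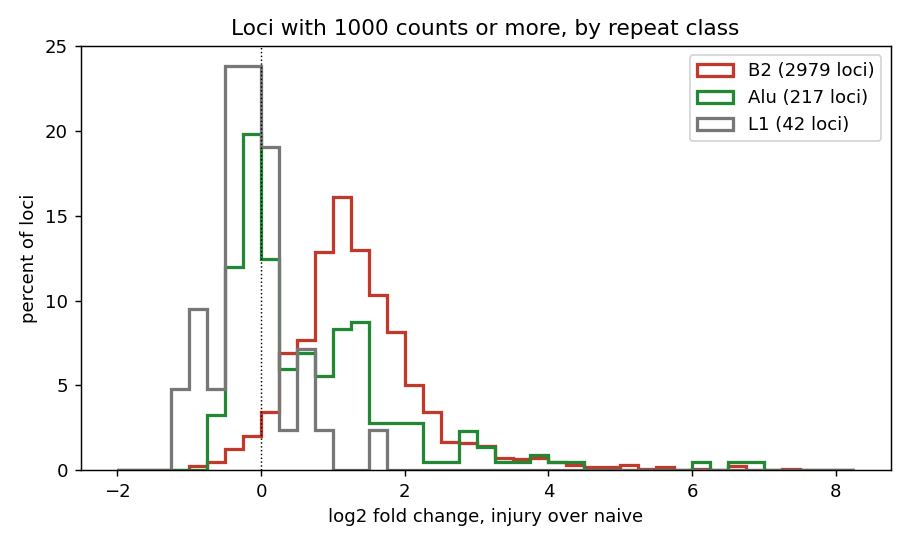
Percent of loci (vertical axis) by log2 fold change, injury over naive (horizontal axis, bins of 0.25), for loci with 1000 counts or more of the classes B2 (2979 loci), Alu (217) and L1 (42). The B2 outline peaks above 1, with its median at 1.23, while the Alu outline has a peak near 0 and a smaller one above 1, and the L1 outline lies around 0.

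Alu and L1 loci under the same minimum of 1000 counts had lower medians. Alu, the class that holds the mouse B1 elements, was higher at 93 and lower at 6 of 217 loci, with a median log2 fold change of 0.38. Of the Alu loci 33.2% lay in an exon of their strand, with a median of -0.10, against 2.79% of the B2 loci. Alu loci in introns were higher at 26 of 42, with a median of 0.98, and those in no gene at 34 of 53, with a median of 1.01. L1, the long autonomous retrotransposon, was higher at 4 and lower at 7 of 42 loci, with a median of -0.19. Their summed windows held 15775 ± 1222 per 1000000 gene counts in injury and 14865 ± 599 in naive libraries for Alu, and 13805 ± 2608 in injury and 13451 ± 1865 in naive libraries for L1 (SD, n = 4 each). B2 windows under 1000 counts, of which 12393 of 71268 passed the filter, had a median of 1.24, next to that of the members. Of those 12393 windows 6033 were higher and 24 lower. Windows with few counts can pass the filter through the injury libraries alone, so this median and these calls depend in part on the filter. No difference between these classes was tested.

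**Figure D2:**
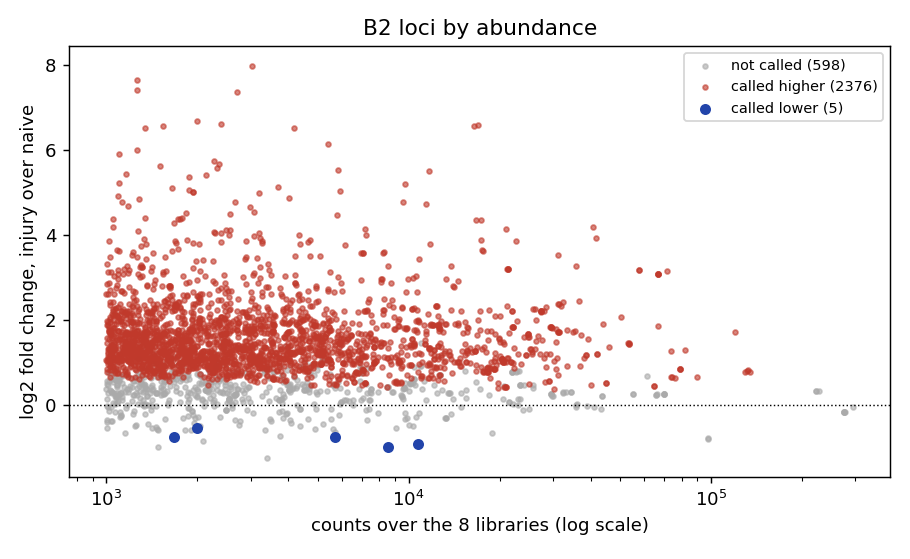
Each point is 1 of 2979 B2 loci, by its counts over the 8 libraries (horizontal, log scale) and its log2 fold change, injury over naive (vertical); colours give the call. The 6 largest rises lie below 5000 counts, and the points with the most counts lie near 0.

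The size of the rise hardly changed with abundance up to 50000 counts. The median log2 fold change was 1.28 for loci from 1000 to 2000 counts, 1.23 from 2000 to 5000, 1.20 from 5000 to 10000 and 1.19 from 10000 to 50000. Among the 50 loci with 50000 counts or more it was 0.66, and 29 of these were called higher. Loci with shared counts, described below, enter these medians and calls separately. For example, 5 loci with totals of 276473 to 276874 counts and a log2 fold change of -0.15 are among the 50. The 50 loci are therefore not 50 separate profiles. Members with at least 500 counts in the naive libraries alone, 1939 loci, were higher at 1415 and lower at 5, with a median of 1.04.

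The loci with the most counts were not called with library totals of the gene table. With TMM over the windows, 6 of them were called lower: the first below (log2 fold change -0.61, edgeR adjusted p = 0.00520) and the 5 that follow it (-0.71, adjusted p = 0.00124 each). The first, on chromosome 9 (105103489 to 105103514, minus strand, in no annotated gene), is covered by 15 windows. It had 2054, 1418, 1572 and 1826 CPM in the injury libraries 1 to 4, against 1713, 2041, 1795 and 1521 CPM in the naive libraries 1 to 4. The groups overlapped, with injury 2 lowest and injury 1 highest (log2 fold change -0.04, SE 0.14, adjusted p = 0.839).

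Next came 5 loci whose counts were nearly equal in every library. They start at 64328484 on chromosome 18 (opposite St8sia3os), 144288911 on the X chromosome, 46105795 on chromosome 17, 31307505 on chromosome 17 (opposite Slc37a1) and 113999499 on chromosome 13 (in an intron of Arl15). Their totals ran from 276473 to 276874 counts. At the locus with the highest of these totals the level was 1757, 1232, 1498 and 1733 CPM in injury libraries, against 1595, 1901, 1768 and 1630 CPM in naive libraries. The groups overlapped and injury 2 was lowest (log2 fold change -0.15, SE 0.13, adjusted p = 0.392). The gene Arl15 itself had 10.3 ± 2.15 CPM in injury and 18.5 ± 1.04 CPM in naive libraries (SD, n = 4 each), and was called lower (log2 fold change -0.78, edgeR adjusted p = 0.00426).

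The next locus, on chromosome 5 (115506130 to 115506155, in no annotated gene), had 1439, 1456, 1693 and 1298 CPM in injury libraries and 1125, 1397, 1122 and 1034 CPM in naive libraries. All but naive 2 lay below all injury libraries (log2 fold change 0.33, SE 0.12, adjusted p = 0.0554). Without injury 4 or without naive 2 the locus was called (adjusted p = 0.0462 and 0.0184), as it was with TMM factors of the genes (0.0291), and with TMM over the windows its log2 fold change was -0.22. A locus on chromosome 2 (166966331 to 166966356, opposite Stau1) had a like pattern, with 1442 ± 161 CPM in injury and 1142 ± 152 CPM in naive libraries (log2 fold change 0.34, SE 0.12, adjusted p = 0.0520). It was called without injury 4 or naive 2 (0.0429 and 0.0177) and with TMM factors of the genes (0.0273), and with TMM over the windows its log2 fold change was -0.21.

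Shared counts were common. Of the 2979 loci, 504 matched another member locus, with totals within 1% and all 8 counts within 5%, though merged loci do not overlap on a strand. Matching loci were chained into 206 groups, so the range in a group can be wider. Of the groups 142 had 2 loci, 41 had 3, 18 had 4 and 5 had 5. At 455 loci a window of any class on another chromosome matched within the same limits. The log2 fold changes in a group differed by at most 0.06. The labels and headers do not say how a read that maps to several places was counted, so a position names a sequence family in these groups and not a source. With each group taken once 2681 profiles were left, of which 2167 were higher and 5 lower, with a median log2 fold change of 1.25.

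Groups with shared counts differed widely in their change. The 3 examples below were chosen after their values were seen, from the groups with the most counts. A group of 4 loci, at 127820449 on chromosome 7, at 122586545 and 107923333 on chromosome 6 and at 16512263 on chromosome 17, had 695, 612, 738 and 658 CPM in injury libraries, against 77.2, 70.3, 88.6 and 79.7 CPM in naive ones (log2 fold change 3.10, SE 0.12, edgeR adjusted p = 1.27e-07). A pair at 28390872 on chromosome 17 and 126232365 on chromosome 7 had 525, 569, 688 and 542 CPM in injury libraries, against 54.1, 77.5, 64.0 and 59.6 CPM in naive ones (log2 fold change 3.19, SE 0.15, edgeR adjusted p = 3.20e-07). In both, each injury library was far above each naive library. A pair at 149423517 on chromosome 4 and 74439329 on chromosome 17 had 705, 155, 242 and 660 CPM in injury libraries, against 815, 619, 843 and 749 CPM in naive ones. There injury 2 and injury 3 lay far below the rest, and the groups overlapped (log2 fold change -0.78, SE 0.41, adjusted p = 0.159).

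**Figure D3:**
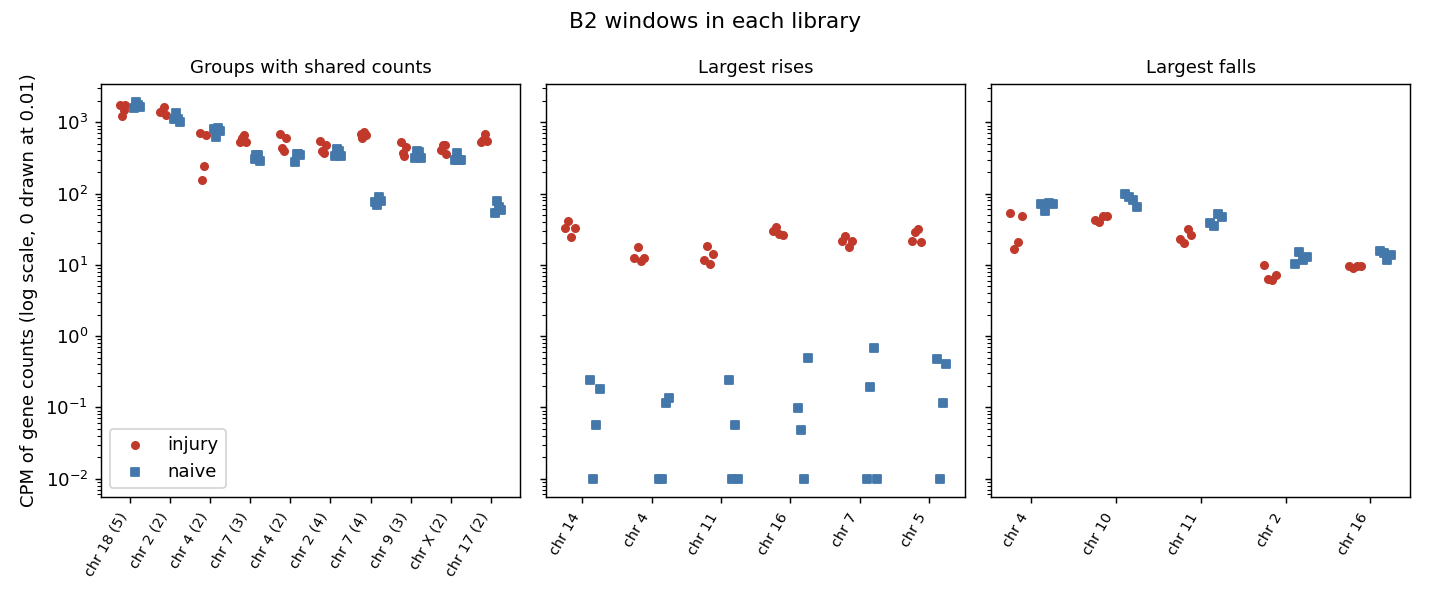
CPM of gene counts (log scale, 0 drawn at 0.01) in each of 4 injury (red circles, left) and 4 naive (blue squares, right) libraries. Left panel, the 10 groups of shared counts with the most counts, named by the chromosome of 1 locus with the number of loci; middle, the 6 largest called rises; right, the 5 called falls. In the left panel 2 groups stand far above their naive level and 1 has 2 injury libraries far below the others; in the middle panel naive libraries lie under 1 CPM.

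The largest rises were at loci with almost no naive counts. These loci met the minimum of 1000 through their injury counts, so their values are a description with no test. A locus on chromosome 14 (104566081 to 104566106, minus strand, in no annotated gene) had 32.5, 41.4, 24.95 and 32.6 CPM in injury libraries, against 0.241, 0, 0.0573 and 0.181 CPM in naive libraries. These naive values are 10 counts in all, so the log2 fold change of 7.997 depends on the prior count of the fit, and leaving out single libraries gave 7.59 to 8.54. On chromosome 16 a locus (22068816 to 22068841, plus strand), opposite Igf2bp2, a gene for an RNA-binding protein, had 29.8, 33.8, 27.0 and 26.5 CPM in injury libraries, against 0.0964, 0.0483, 0 and 0.498 CPM in naive libraries. Its log2 fold change was 7.38, and ran from 7.03 to 9.02 without single libraries. The other 4 of the 6 largest start at 108678238 on chromosome 4 (opposite Zfyve9), at 101235652 on chromosome 11, at 145132200 on chromosome 7 and at 151295380 on chromosome 5 (opposite Gm42906). Their log2 fold changes were 7.65, 7.41, 6.69 and 6.61, with 5, 6, 16 and 21 counts in the naive libraries. Without single libraries they ran from 7.25 to 8.40, from 6.99 to 9.24, from 6.25 to 8.30 and from 6.20 to 7.11. In all 6, each injury library lay at 10.1 CPM or more and each naive library below 0.7 CPM.

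Only 5 loci were called lower, and the call of 3 of them rests on single libraries or settings. A locus on chromosome 10 (117030021 to 117030046, in no annotated gene) had 42.2, 39.9, 47.8 and 48.6 CPM in injury libraries, against 97.8, 90.8, 80.0 and 65.5 CPM in naive libraries, with no overlap (log2 fold change -0.91, SE 0.15, edgeR adjusted p = 0.000735). On chromosome 11 a locus (103405754 to 103405779) opposite Plekhm1, which acts in lysosome fusion, averaged 25.4 ± 4.68 CPM in injury and 42.9 ± 7.41 CPM in naive libraries (SD, n = 4 each; log2 fold change -0.76, edgeR adjusted p = 0.00634). In an untranslated region (UTR) of Sdf4, which encodes a calcium-binding protein of the Golgi, a locus on chromosome 4 (156013550 to 156013575) had 52.7, 16.96, 21.2 and 48.1 CPM in injury libraries, against 72.4, 57.2, 73.9 and 71.6 CPM in naive libraries. Injury 2 and injury 3 were again lowest (log2 fold change -0.99, SE 0.33, edgeR adjusted p = 0.0356). This call was lost without injury 2, injury 3, naive 1, naive 3 or naive 4 (adjusted p = 0.0587, 0.0800, 0.0728, 0.0758 and 0.0723). The gene Sdf4 had 188 ± 17.3 CPM in injury and 226 ± 15.1 CPM in naive libraries (log2 fold change -0.19, edgeR adjusted p = 0.137). In a UTR of Ccdc32 a locus on chromosome 2 (119017790 to 119017815) averaged 7.40 ± 1.75 CPM in injury and 12.5 ± 2.02 CPM in naive libraries (log2 fold change -0.75, edgeR adjusted p = 0.0175), a call that was lost without naive 2 (0.0523) and without naive 2, injury 2 and injury 3 together (log2 fold change -0.43, adjusted p = 0.175). The gene Ccdc32 had 42.3 ± 4.55 CPM in injury and 57.3 ± 3.21 CPM in naive libraries, and was called lower too (log2 fold change -0.36, edgeR adjusted p = 0.0263). At both of these loci window and gene may count the same reads. The last locus, on chromosome 16 (59644363 to 59644388, opposite 4930547E14Rik), averaged 9.55 ± 0.262 CPM in injury and 13.9 ± 1.81 CPM in naive libraries (log2 fold change -0.55, edgeR adjusted p = 0.0205). That call was lost without a filter on low counts (0.0864), without naive 1 (0.0592) and without naive 2, injury 2 and injury 3 together (0.0905).

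Most loci lay outside exons of their own strand. By GENCODE vM21 on GRCm38, 1148 loci were in no gene, 886 had a gene on the opposite strand only, 694 lay in an intron and 83 in an exon of a gene on their strand, and 168 within 5000 bases past the end of one. Among loci with a gene on 1 strand only, 43.4% had it on their own strand. This share was 45.7% for B2 loci under 1000 counts and 73.6% for Alu loci with 1000 counts or more. Loci in introns had a median log2 fold change of 1.21, as had those with only an opposite gene, and those in no gene had 1.28. Of these, 557 of 694, 712 of 886 and 943 of 1148 were called higher. In exons 41 of 83 were higher and 2 lower, with a median of 0.43. B2 loci under 1000 counts had a like order among those that passed the filter. Their medians were 0.34 in exons, 1.13 in introns, 1.29 with only an opposite gene and 1.31 in no gene.

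**Figure D4:**
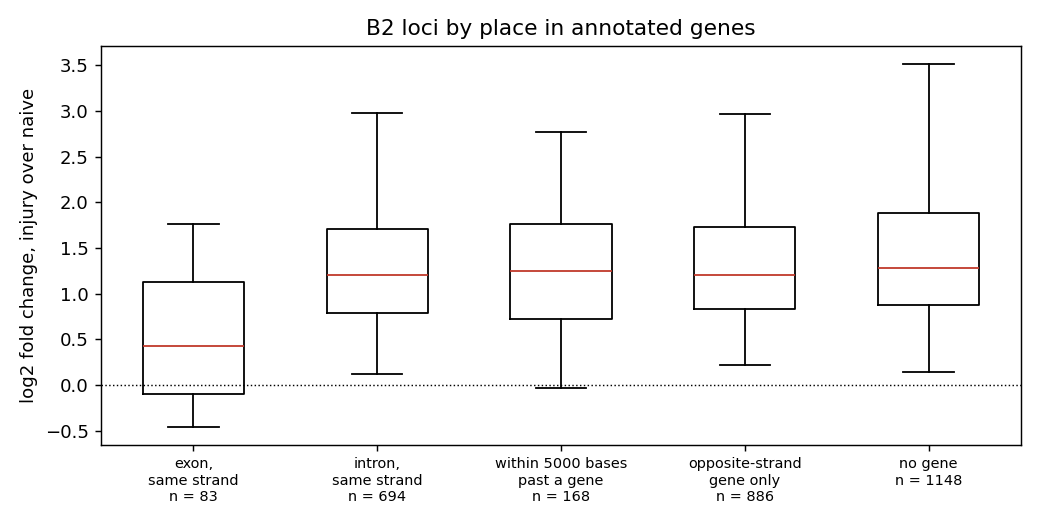
Log2 fold change, injury over naive (vertical axis), of B2 loci by place in annotated genes; n is the number of loci, the red line the median, the box the 25th to 75th percentile and the whiskers the 5th to 95th percentile. The box of loci in exons of their own strand, with a median of 0.43, lies below the other 4, whose medians are 1.21 to 1.28.

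Of the loci in an exon on either strand, 114 had 150 bases of sequence before the window. Among these, the presence of GTTCAA there went with the size of the change. The 98 loci with it had a median log2 fold change of 0.88, with 60 higher and 1 lower, and the 16 without it had -0.01, with 4 higher and 1 lower. Among loci on the strand of the transcript these medians were 0.71 over 63 loci with it and -0.07 over 15 without it. Among loci opposite to the transcript 35 of 36 had GTTCAA, with a median of 1.15. Of the B2 loci under 1000 counts in exons, those that passed the filter had medians of 1.01 with GTTCAA and -0.15 without it. No split was tested, and the member loci in exons are few.

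The loci and the genes that hold them differed in their change. Exactly 1 tested gene on the same strand held 531 loci, 467 genes in all. Over all genes tested 10.1% were higher and 7.76% lower in injury libraries. The median log2 fold change was 1.14 for these windows and -0.01 for their genes, and 473 of the 531 windows lay above their gene. The changes of the genes use TMM factors and those of the windows do not. With the TMM factors of the genes, the median of all member windows was 1.30 in place of 1.23. Where the gene was called lower, at 42 loci, the windows had a median of 1.25 and the genes -0.50. Where the gene was called higher, at 49 loci, the windows had 1.02 and the genes 0.52. Across the 531 loci, which share libraries and sometimes genes, Pearson's r was -0.05 and Spearman's rho -0.09, given as a description.

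**Figure D5:**
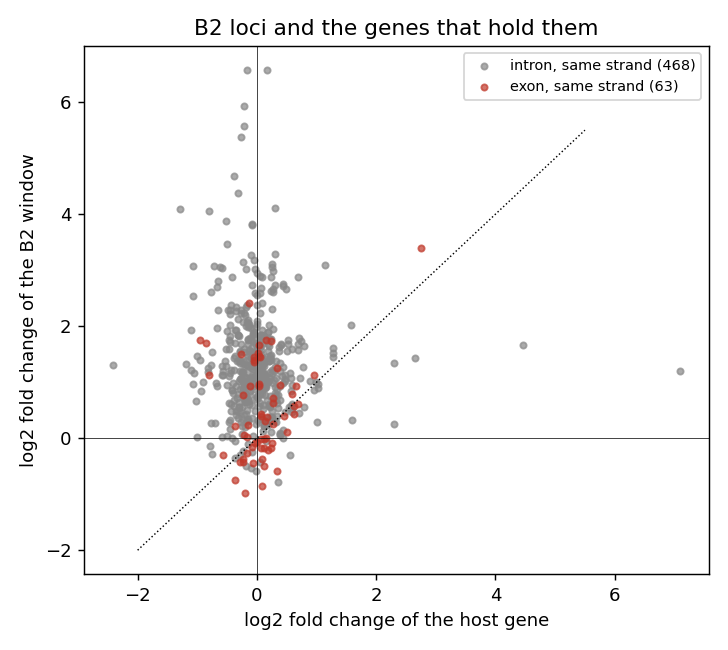
Log2 fold change, injury over naive, of 531 B2 loci (vertical axis) against that of the 1 tested gene that holds each on its strand (horizontal axis); grey points lie in introns (468), red points in exons (63), and the dotted line marks equal change. The cloud is upright at a gene change near 0, and the windows' median of 1.14 stands above it. Gene changes use TMM factors and window changes do not.

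The 6 exonic loci with the smallest p were all higher. They were chosen from the called loci in exons of their strand, of which 41 were higher and 2 lower. Their direction was thus nearly fixed by the choice. With 179, 255 and 441 naive counts, the loci in Cenpf, Aarsd1 and Vwce met the minimum total for members through their injury counts. Their values are a description with no test. In a UTR of Cenpf, a kinetochore protein gene of dividing cells, the locus on chromosome 1 (189640612 to 189640637) had 24.4, 20.6, 20.4 and 28.2 CPM in injury libraries, against 2.56, 1.74, 2.29 and 2.26 CPM in naive libraries (log2 fold change 3.40, with 179 naive counts). The gene Cenpf had 23.7 ± 3.99 CPM in injury and 3.73 ± 1.19 CPM in naive libraries (log2 fold change 2.74, SE 0.21). Window and gene may count the same reads here, so their values may not be independent. In a UTR of Samhd1, which encodes a dNTP hydrolase that restricts retroviruses, the locus on chromosome 2 (157103663 to 157103688) had 28.7, 45.0, 43.7 and 35.3 CPM in injury libraries, against 11.1, 13.6, 13.5 and 9.96 CPM in naive libraries (log2 fold change 1.66, SE 0.19). The gene Samhd1 had 44.8 ± 2.97 CPM in injury and 46.4 ± 5.67 CPM in naive libraries (log2 fold change 0.03, SE 0.10, edgeR adjusted p = 0.875).

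An exonic locus within Gm43138 and the Golgi protein gene Golga3 on chromosome 5 (110207234 to 110207259) had 107 ± 11.7 CPM in injury and 41.4 ± 2.04 CPM in naive libraries (log2 fold change 1.37, SE 0.12). The gene count of Golga3 was lower than that of this window, at 24.8 ± 2.45 CPM in injury and 27.0 ± 4.32 CPM in naive libraries. At an exonic locus within Aarsd1 and Gm27029 on chromosome 11 (101414484 to 101414509) the level was 16.8 ± 2.34 CPM in injury and 3.12 ± 0.861 CPM in naive libraries (log2 fold change 2.42), while Aarsd1, a gene for a tRNA-editing protein, had 37.4 ± 3.59 CPM in injury and 43.1 ± 4.14 CPM in naive libraries. In an exon of Vwce on chromosome 19 (10639131 to 10639156) it was 20.5 ± 3.37 CPM in injury and 5.46 ± 1.00 CPM in naive libraries (log2 fold change 1.91). The gene Vwce had 0.0429, 0.276, 0.139 and 0 CPM in injury libraries and 0 in every naive library, and was not tested. The locus in B930036N10Rik, whose sequence is shown above, had 74.97, 69.9, 54.1 and 86.6 CPM in injury libraries, against 7.38, 9.85, 14.1 and 19.0 CPM in naive libraries (log2 fold change 2.50, SE 0.28, edgeR adjusted p = 6.90e-05).

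At the rule's limit, 3 overlapping windows that start between 74551765 and 74551768 on chromosome 17, opposite Birc6, had 1000 counts, with 6.78 ± 2.89 CPM in injury and 5.15 ± 0.569 CPM in naive libraries. Just outside it a window on chromosome 18 (start 15989496) had 999 counts, with 7.85 ± 2.16 CPM in injury and 3.77 ± 0.947 CPM in naive libraries. A pair of overlapping windows on the X chromosome (starts 145591898 and 145591899) also had 999 counts, with 13.6, 1.52, 2.51 and 14.6 CPM in injury libraries and 4.39, 2.95, 5.73 and 4.12 CPM in naive libraries. In these injury libraries 2 and 3 again lay below all the others.

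A list of 37 genes held the subunits of polymerase III, which transcribes B2 elements from their own promoter, with its factors and regulators. The list also holds factors of other promoters, Brf2 and the Snapc genes, and the repressor Maf1. Of the 36 tested, 2 were higher, 1 lower and 33 not called, where 10.1% of all genes tested were higher and 7.76% lower, with a median log2 fold change of 0.03 against -0.02 over all genes. Among the higher ones, the subunit gene Polr3d had 41.2 ± 1.66 CPM in injury and 32.1 ± 3.27 CPM in naive libraries (log2 fold change 0.44, edgeR adjusted p = 0.0113). Snapc5, of the complex that binds small nuclear RNA promoters, was lower, with 15.4 ± 2.28 CPM in injury and 24.6 ± 3.25 CPM in naive libraries (log2 fold change -0.59, edgeR adjusted p = 0.0138). Not called were Gtf3c1, of the factor that binds the B box (log2 fold change 0.04), the polymerase III repressor Maf1 (-0.17) and Ssb, whose protein La binds the ends of polymerase III transcripts (-0.07).

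Atf3, a nerve injury response gene, was higher under the injury label, with 320 ± 29.6 CPM in injury and 62.1 ± 8.74 CPM in naive libraries (SD, n = 4 each). Summed sensory neuron markers were 7228 to 8059 CPM in injury and 8723 to 9532 CPM in naive libraries, with 2 of 8 called lower. The 4 macrophage markers were all higher, with sums of 21.01 to 33.1 CPM in injury and 5.51 to 9.01 CPM in naive libraries. The summed markers of satellite glia, Schwann cells, fibroblasts, endothelium and red cells overlapped between the groups. Of these markers Glul, of satellite glia, was higher, with 504 ± 50.1 CPM in injury and 343 ± 19.6 CPM in naive libraries (log2 fold change 0.63, edgeR adjusted p = 0.000333). Hba-a1 and Hbb-bt of the last list were at 0 in every library. The part of these cells in the B2 counts was not tested. In whole ganglia, a change in the number of cells of a type and a change in RNA per cell cannot be told apart.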

How the data were processed

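The 2 tables of read counts deposited by the authors were used, of genes and of genomic windows, both raw whole numbers per the file's values. The submitters' processing notes name bcl2fastq 2.17, STAR and HTSeq with GRCm38/mm10; the labels and headers do not say how windows were chosen or multiply mapped reads counted, nor does the window table say whether starts count from 0 or 1; positions are printed as it gives them, and sequences and their positions assume that the window begins 1 base after its start. Windows were tested together in edgeR 4.0.16 (R 4.3.3; quasi-likelihood test, filterByExpr, group only, library size the total of the gene table, no scaling factors), genes likewise with TMM factors, with 0.05 as threshold of the Benjamini-Hochberg adjusted p. Of the windows 33851 and of the genes 13770 passed the filter. DESeq2 1.42.0 was an alternative. CPM are per 1000000 gene counts, also for genes. Place and sequence come from GENCODE vM21 and its transcripts on GRCm38.

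Named loci are the 8 with the most counts; the 6 largest rises and up to 6 falls among called loci that moved 1 way in each same-numbered pair; the 6 called loci in exons with the smallest p; the 4 with the most counts among those not called; and 3 windows on either side of the rule's limit. Named genes are those of the polymerase III list past the test, of which 1 is not reported here, the genes that hold named windows, and Atf3; 3 more of the list are named for their roles. Members, lists and rules were chosen with earlier results of these data known.

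The series' design text says that each of the 4 mice gave injured and naive ganglia, but the labels do not tie a replicate number to a mouse. The number was therefore used as a block only in an alternative fit.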

Additional observations from a re-analysis of the deposited data

Results flagged for a closer look

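In 70 groups of 4 libraries at named loci, 2 held a library far from the other 3 of its group, and chance flags about 1 in 20 groups. At the locus in a UTR of Sdf4 on chromosome 4, naive 2 had 57.2 CPM, below the 71.6 to 73.9 CPM of the other naive libraries. At the locus opposite 4930547E14Rik on chromosome 16, injury 2 had 9.15 CPM, below 9.66 to 9.69 CPM in the other injury libraries.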

How the results depend on the processing

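For the members, the count called higher stayed within 1.5 times 4584 in every refit of the windows, from 3313 with TMM over the windows to 5100 without naive 2, injury 2 and injury 3 together. That joint omission gave 17 lower and a median log2 fold change of 1.40. Leaving out single libraries gave 4279 to 4686 higher, 12 to 46 lower and medians of 1.18 to 1.30 for members, and 10369 to 12112 higher and 588 to 789 lower for all windows. TMM over the windows gave 285 members lower and a median of 0.67, and 7005 higher and 5071 lower of all windows. Other definitions gave fewer features to count: 2376 higher and 5 lower by locus, 1437 and 14 with at least 5000 counts, 2843 higher with a median of 1.05 with at least 500 naive counts, and, an alternative chosen after seeing the data, 2167 and 5 with 1 locus per group of shared counts. The replicate block gave 4412 members higher and 24 lower, with a median of 1.22, called the locus opposite Stau1 (adjusted p = 0.0498), lost the fall on chromosome 16 opposite 4930547E14Rik (0.0585) and changed no other call of a named locus. Deviations of same-numbered libraries correlated at 0.09, 0.20, -0.06 and 0.11 over the windows tested and at 0.15, 0.33, -0.17 and 0.11 over member loci, and not every library correlated best with its own number. Of the polymerase III genes 2 to 3 were higher and 1 lower without single libraries, and 2 were lower with library totals alone. Of 25 named loci 14 kept direction and call in all 14 refits. The locus with the most counts, on chromosome 9, turned to 0.0342 with gene TMM factors, 0.0403 without injury 2, 0.0352 without naive 2 and 0.211 without naive 2, injury 2 and injury 3, never called in these, and ran from -0.139 to 0.0403 without single libraries; the 5 loci with shared counts turned to 0.0682, 0.0688, 0.0686, 0.0685 and 0.0686 under the joint omission. With TMM over the windows the loci on chromosomes 5 and 2 with the most counts turned to -0.22 and -0.21, not called, and the 6 loci above them were called lower (-0.61 and -0.71, adjusted p = 0.00520 and 0.00124). The loci on chromosomes 5 and 2 were called with gene TMM factors (0.0291 and 0.0273) and under the joint omission (0.0111 and 0.0110). The cause was not tested. At loci with few naive counts the depth limits the size of the fold change.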
